A study of Mus musculus with 56 samples.

Results

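Hvcn1, Stac2, Slc16a14, Map3k9, Asphd2 and Pcdhga10 are 6 genes whose response to loss of Znrf3 in the male mouse adrenal gland differed between ages. They are 6 of the 52390 genes shared by the 3 count tables of the study. They were picked because the difference between knockout and control glands changed between 4 and 9 weeks in males. The male values therefore describe the choice and were not tested. Female glands and glands from a separate surgery series were not used in the choice, and the tests were run there. All 6 genes passed the filter on low counts in each table.

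The genes encode proteins of unlike kinds. Hvcn1 encodes a voltage-gated proton channel known from phagocytes and B cells, where it carries protons out of the cell while the NADPH oxidase moves electrons across the membrane. Stac2 encodes an adaptor that binds L-type calcium channels, and Slc16a14 a little-studied member of the monocarboxylate transporter family. Map3k9 encodes mixed lineage kinase MLK1, an upstream kinase of the JNK pathway. Asphd2 encodes a protein with an aspartate beta-hydroxylase domain. Pcdhga10 is a clustered gamma protocadherin, a cell adhesion molecule whose mRNA joins its own first exon to exons shared by the whole cluster. Znrf3 itself encodes a ubiquitin ligase of the membrane that clears receptors for Wnt ligands and so dampens Wnt signalling.

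The glands came whole from C57BL/6J mice, with 4 independent mice in each of 14 groups. Conditional knockout (cKO) mice carried SF1-Cre and 2 floxed Znrf3 alleles (genotype SF1-Cre+;Znrf3 Fx/Fx), and controls were SF1-Cre negative littermates. SF1-Cre is active in steroidogenic cells, so other cells of the gland keep Znrf3. Females were 6, 9 or 12 weeks old and males 4, 6 or 9 weeks old. In the surgery series all 8 males were cKO animals aged 9 weeks, castrated at week 4 or given sham surgery then. Part of these animals carried an R26eYFP or R26mTmG reporter allele, and no control genotype was included. The comparison was designed to look for what mediates the turn from overgrowth to regression of the gland.

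Total counts per library ran from 35694264 to 51604620 in females, from 12431963 to 35531016 in males and from 25145519 to 42411447 in the surgery series. Levels below are CPM, gene counts scaled to a common library total with TMM factors, and they are comparable within a table only. A gene was called at an adjusted p under 0.05 in edgeR's quasi-likelihood test, adjusted by the Benjamini-Hochberg method over all genes tested. Znrf3 counts per gene were higher in cKO glands in both sexes (mean 76.7 against 36.6 CPM in 6-week females), and a count over the whole gene does not check the deleted part. The summed level of 5 liver genes, at most 3.97 CPM in every control library, reached 353 CPM in 12-week female cKO replicate 2, and 111, 74.4 and 99.6 CPM in 1 male cKO library each of 4, 6 and 9 weeks. In whole glands, fewer cells of a type and less RNA per cell cannot be told apart.

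Windows upstream of the genes were read from RefSeq (GRCm38.p6) and matched for 3 of the 6 genes on the chromosomes shown. They are given because Slc16a14 and Map3k9 varied together among libraries while Asphd2 did not vary with them. In males this is partly set by the choice of the genes. All 3 lie on the minus strand and are printed 5′ to 3′ up to the annotated gene, with CCAAT boxes (CCAAT) and GC boxes (GGGCGG) on either strand in capitals. The Slc16a14 window is chr1:84935135-84935333, the Map3k9 window is chr12:81781176-81781420 and the Asphd2 window is chr5:112394867-112395023.
Slc16a14: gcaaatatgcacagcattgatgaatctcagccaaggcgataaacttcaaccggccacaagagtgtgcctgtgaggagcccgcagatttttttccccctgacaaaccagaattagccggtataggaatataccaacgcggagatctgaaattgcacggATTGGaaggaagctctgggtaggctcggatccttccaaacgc
Map3k9: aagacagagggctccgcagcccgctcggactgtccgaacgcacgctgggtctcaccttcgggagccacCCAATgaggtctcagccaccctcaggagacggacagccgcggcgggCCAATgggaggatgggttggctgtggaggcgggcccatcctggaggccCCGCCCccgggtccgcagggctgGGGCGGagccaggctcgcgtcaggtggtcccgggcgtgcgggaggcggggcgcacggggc
Asphd2: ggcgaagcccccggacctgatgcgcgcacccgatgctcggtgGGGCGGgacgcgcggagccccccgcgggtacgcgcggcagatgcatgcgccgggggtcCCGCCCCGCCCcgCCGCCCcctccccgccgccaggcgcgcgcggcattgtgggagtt
The Slc16a14 window was 49.7% G or C and held 1 CCAAT box and 0 GC boxes. The Map3k9 window was 73.9% G or C with 2 CCAAT boxes and 2 GC boxes. The Asphd2 window was 80.9% G or C with 0 CCAAT boxes and 4 GC boxes, 2 of which overlap. It lies before the second of 2 start sites that RefSeq gives for Asphd2. The window of 250 bases before the other site (chr5:112395371-112395620) was 55.6% G or C and held 1 CCAAT box and 0 GC boxes, so the boxes do not set Asphd2 apart from the other genes. In the full windows of 250 bases, both of Asphd2 included, no match was found to the letters AAGGTCA (SF1), CTTTGAT (TCF/LEF), TGACTCA (AP-1) or AGAACA (androgen response half-site). Of 32851 promoter windows of that length, 4.1%, 3.2%, 4.5% and 16.1% hold those letters on either strand. A CCAAT box occurs in 33.8% of these windows and a GC box in 32.7%.

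In males the genotype difference of 2 genes, Hvcn1 and Stac2, rose from 4 to 9 weeks, and that of Slc16a14, Map3k9, Asphd2 and Pcdhga10 fell from a positive to a negative log2 fold change. At 4 weeks the difference was 2.12 for Slc16a14 and 1.28 for Map3k9, but only 0.40 for Asphd2 and 0.37 for Pcdhga10. At 4 weeks 2 of 6 genes had groups that did not overlap (Slc16a14 higher and Stac2 lower in cKO), at 6 weeks 2 (Hvcn1 higher, Asphd2 lower) and at 9 weeks 3 (Hvcn1 higher, Asphd2 and Pcdhga10 lower). Of all genes tested in males 19.1%, 24.7% and 21.7% had groups that did not overlap at these ages. In edgeR's test 19.2%, 20.1% and 24.1% were called for genotype at these ages (6.29%, 8.19% and 10.4% higher, 12.9%, 11.9% and 13.6% lower in cKO), 0.00585% for a change between 4 and 6 weeks and 4.92% for a change between 4 and 9 weeks. The last share stands for 840 genes, and the count was 13 with the range of library numbers as a covariate, 290 without 9-week control replicate 1 and 2181 without 9-week cKO replicate 1. Nothing is read from these shares here, because the genes were chosen on the same values. Male libraries fell into numbers up to 24 and above 24 in their titles, and this range was unevenly spread over the groups. At 4 weeks all cKO libraries and control replicate 1 had numbers up to 24, and control replicates 2, 3 and 4 numbers above 24. At 6 weeks range and genotype cannot be told apart. At 9 weeks each range held 2 cKO and 2 control libraries. With the range as a covariate the 4-week differences were 1.64 for Slc16a14, 1.07 for Map3k9, 0.14 for Asphd2 and 0.33 for Pcdhga10. Those of Stac2 and Hvcn1 were -2.04 and 0.09. The changes between 4 and 9 weeks were then 3.53 (Hvcn1), 3.50 (Stac2), -2.47 (Slc16a14), -1.44 (Map3k9), -2.57 (Asphd2) and -1.46 (Pcdhga10).

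**Figure D1:**
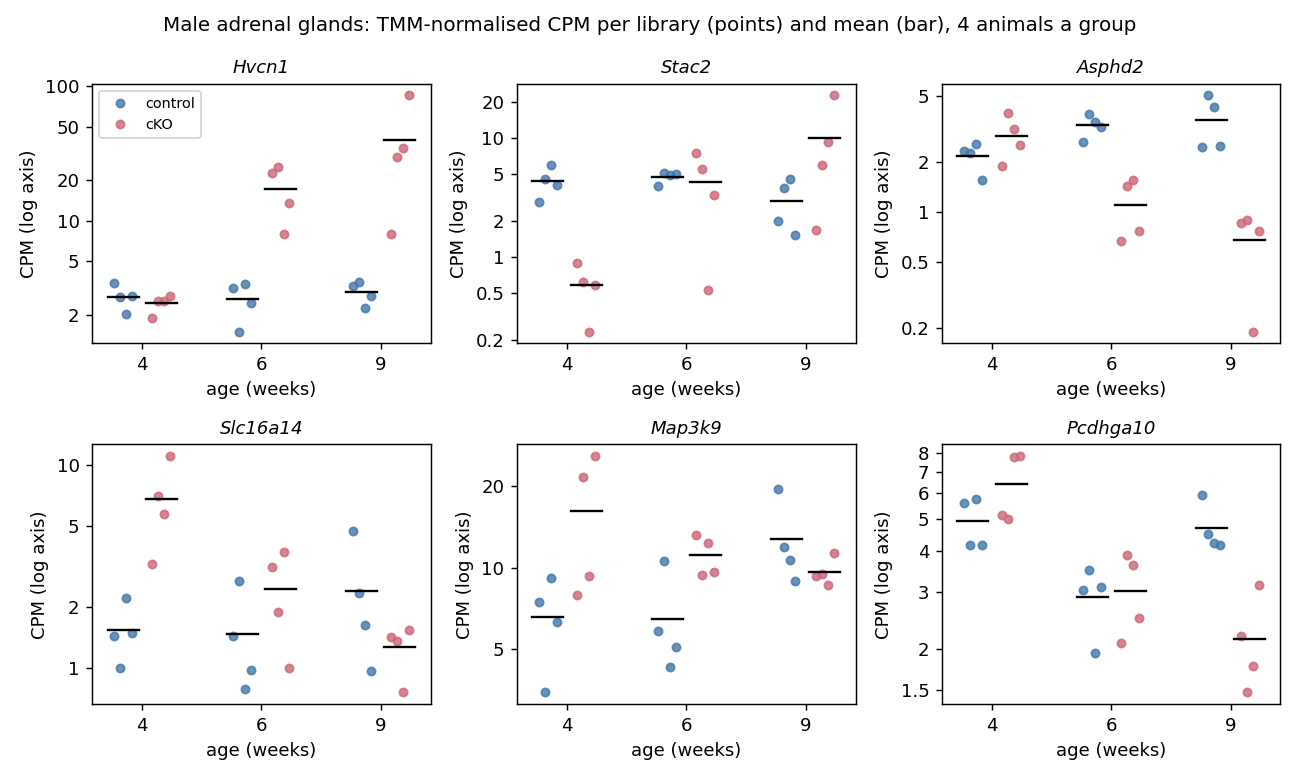
TMM-normalised CPM (log axis) of the 6 genes in male adrenal glands against age in weeks; each point is 1 library, blue for control and red for cKO, and bars are means of 4 animals. Hvcn1 in cKO glands goes from 1.9 to 2.77 CPM at 4 weeks to 7.99 to 85.1 CPM at 9 weeks, while Asphd2 in cKO glands ends below all controls.

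Hvcn1, the proton channel, was at like levels in control and cKO males of 4 weeks and at higher levels in cKO males of 6 and 9 weeks. In 4-week males the control libraries had 3.42, 2.71, 2.02 and 2.74 CPM and the cKO libraries 1.9, 2.55, 2.52 and 2.77 CPM. At 6 weeks controls had 3.14, 1.5, 3.37 and 2.43 CPM and cKO glands 22.5, 25, 8 and 13.6 CPM. Controls of 9 weeks had 3.3, 3.49, 2.25 and 2.77 CPM and cKO glands of that age 7.99, 29.9, 34.9 and 85.1 CPM. Control levels stayed near 3 CPM, and the cKO groups lay wholly above them from 6 weeks on, with a wide spread at 9 weeks. The log2 fold changes were -0.19, 2.72 and 3.74, and the change between 4 and 9 weeks was 3.93 ± 0.67 (SE), or 3.18 without 9-week cKO replicate 4. Within the ranges of library numbers at 9 weeks the log2 ratio was 2.48 up to 24 and 4.58 above 24.

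Hvcn1 was higher in cKO than in control females at all 3 ages, by 2.65-fold to 3.67-fold. Control levels were 1.51, 2.02, 2.09 and 1.63 CPM at 6 weeks, and cKO levels were 2.95, 3.58, 4 and 11.9 CPM. The 9-week libraries held 2.23, 3.13, 2.65 and 2.65 CPM in controls and 9.26, 7.74, 3.62 and 7.65 CPM in cKO glands. By 12 weeks the levels were 2.29, 4.86, 2.2 and 6.09 CPM in controls and 9.02, 22.8, 11.2 and 13.7 CPM in cKO glands. The groups did not overlap at any age, with all 4 cKO libraries above all 4 controls. Log2 fold changes were 1.63 ± 0.42, 1.41 ± 0.41 and 1.87 ± 0.41 (SE, n = 4 each), with edgeR adjusted p of 0.00409, 0.0103 and 0.00148. Without 6-week cKO replicate 4, the library with 11.9 CPM, the 6-week value was 0.95 (adjusted p = 0.0443). Without 12-week cKO replicate 2, the library with the high sum of liver genes, the 12-week value was 1.55 (adjusted p = 0.0082). The effect did not pass the test for a change with age (0.25 ± 0.57 between 6 and 12 weeks, edgeR adjusted p = 0.928; 0.92 and 0.542 without 6-week cKO replicate 4). Within cKO females Hvcn1 rose from 6 to 12 weeks by 1.34 ± 0.40 (edgeR adjusted p = 0.0357), a call that was lost without 6-week cKO replicate 1, 2 or 3 or 12-week cKO replicate 2 or 4 (adjusted p up to 0.147) and with the compared groups alone (adjusted p = 0.138). Without 6-week cKO replicate 4 that rise was 2.02 (adjusted p = 0.00203). In controls the same difference was 1.09 ± 0.42 (adjusted p = 0.464).

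Castration lowered Hvcn1 in male cKO glands. Sham-operated animals had 32.6, 43.9, 41.9 and 34.4 CPM and castrated animals 3.69, 4.81, 5.5 and 5.44 CPM, so that the groups were far apart. The log2 fold change was -2.97 ± 0.17, or 7.84-fold lower, with an edgeR adjusted p of 1.03e-06. This change was larger in size than that of 98.2% of the genes tested.

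Macrophage and monocyte markers moved with Hvcn1. The summed level of 12 such genes, none of them at 0 in any group, was 235 to 389 CPM in control and 264 to 698 CPM in cKO males at 4 weeks. It was 364 to 434 against 718 to 2250 CPM at 6 weeks and 435 to 567 against 928 to 4630 CPM at 9 weeks. Of the 12 genes, 1, 9 and 8 were called higher in cKO males at the 3 ages and none was called lower. In females 7, 9 and 6 were called higher and 0, 1 and 0 lower, with summed levels of 452 to 1190, 485 to 965 and 916 to 1580 CPM in cKO glands against 259 to 461, 283 to 354 and 354 to 541 CPM in controls. After castration 10 of the 12 were called lower, at 441 to 706 against 1420 to 2820 CPM. The highest Hvcn1 library of each table was also the library with the highest marker sum. The summed level of 6 B cell genes was less spread and did not follow Hvcn1 with age in males. It was 244 to 341 CPM in cKO against 67.7 to 191 CPM in control males at 4 weeks, when Hvcn1 levels were alike. At 9 weeks it was 200 to 256 against 110 to 142 CPM. Of these 6 genes 1, 2 and 2 were called higher in cKO males and 2, 2 and 1 in cKO females. After castration 2 were called lower, but the B cell sums overlapped, at 124 to 185 CPM in castrated and 111 to 214 CPM in sham-operated animals. Sums of neutrophil genes (mean 14.5 against 6.01 CPM) and of T and NK cell genes (16.6 against 6.74 CPM) were also higher in 9-week cKO males. Of 3 and 6 such genes tested there, 1 and 2 were called higher. In castrated against sham-operated animals these sums were 3.27 against 11.3 CPM and 10.1 against 21.3 CPM. The part of any of these cells in the Hvcn1 differences was not tested.

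**Figure D2:**
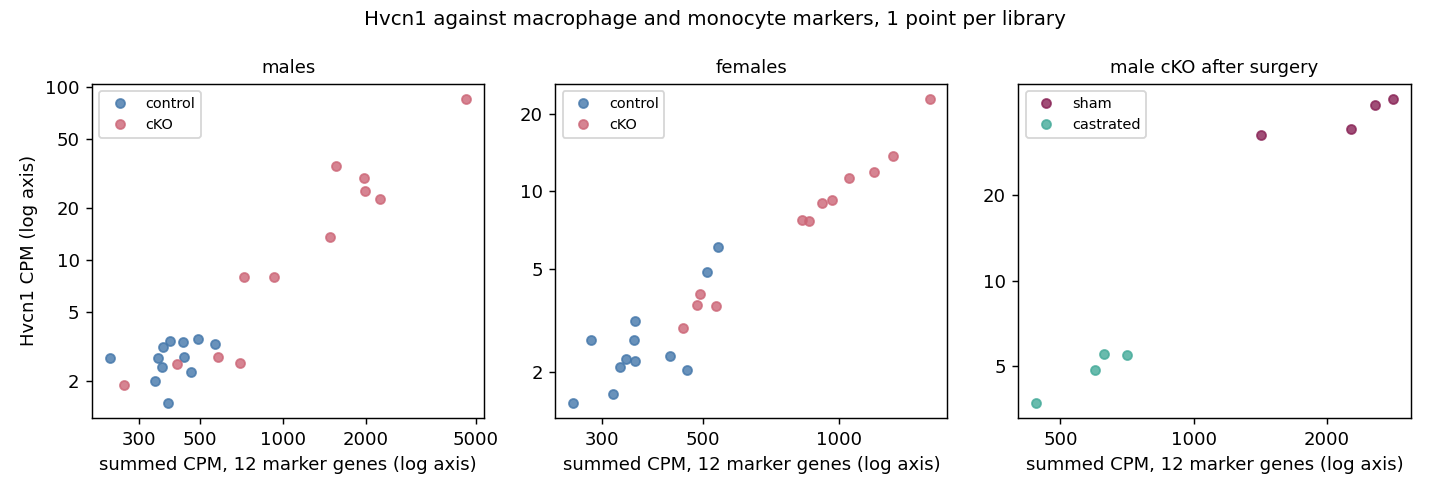
Hvcn1 CPM against the summed CPM of 12 macrophage and monocyte marker genes (both axes log), 1 point per library, for males, females and male cKO animals after surgery. The male cKO library with 85.1 CPM of Hvcn1 has a marker sum of 4630 CPM, and castrated animals lie low on both axes (3.69 to 5.5 CPM of Hvcn1).

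Partners of Hvcn1 in the phagocyte oxidase were called higher in cKO males of 6 and 9 weeks. Of 12 listed genes 9 were tested in males, and 1, 4 and 7 were called higher at 4, 6 and 9 weeks (2 at 4 weeks without cKO replicate 1), with none lower. Of all genes tested in males 6.29%, 8.19% and 10.4% were called higher at these ages. The list's median log2 fold change at 9 weeks was 0.99, beside -0.01 over all genes tested. Cyba, the p22phox subunit, rose by 1.45 at 6 weeks and 1.94 at 9 weeks on the log2 scale. Its r with Hvcn1 was 0.98 over the male libraries, on which Hvcn1 was chosen. The male values of this list are thus no separate support for Hvcn1. In females 3 of 10 were called higher and 1 lower at each age. Of all genes tested 14.2%, 14.6% and 9.11% were higher there and 19.1%, 20% and 16% lower. At 6 weeks the count higher fell to 1 without cKO replicate 4 or control replicate 1 or 4. Nox4, which encodes another oxidase, was the gene that fell in females, by 1.53, 1.11 and 1.45. Castration lowered 5 of 9, among them Cyba (-2.22), and raised 3, a count of 1 without castrated replicate 3. Over all genes tested 23.8% were lower and 19.8% higher.

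Stac2, the calcium channel adaptor, was lower in cKO glands of the youngest animals, and its cKO levels were higher in older ones. In 4-week males controls had 2.88, 4.54, 5.89 and 4.05 CPM and cKO glands 0.89, 0.613, 0.235 and 0.584 CPM. At 6 weeks controls had 3.94, 5.12, 4.88 and 4.99 CPM and cKO glands 7.54, 5.55, 0.525 and 3.34 CPM. Controls of 9 weeks had 2, 3.78, 4.55 and 1.54 CPM and cKO glands of that age 1.68, 6, 9.21 and 22.9 CPM. The groups were separate at 4 weeks only, and the cKO libraries then spread over more than the control range. Differences on the log2 scale were -2.81, -0.16 and 1.74, and the change between 4 and 9 weeks was 4.55 ± 0.90 (SE). When the range of library numbers was a covariate, that change was 3.50 and the 4-week value was -2.04. The 6-week value of 0.84 in that fit rests on range differences at the other ages, because range and genotype coincide at 6 weeks. Without 9-week cKO replicate 4 the 9-week value was 0.94 and the change 3.68. At 9 weeks the log2 ratio was 0.41 in library numbers up to 24 and 2.40 above 24.

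In females Stac2 was called lower in cKO glands at 9 weeks. Controls had 1.36, 1.71, 1.47 and 2.02 CPM at 6 weeks and cKO glands 0.275, 0.313, 0.412 and 2.36 CPM. Control levels were 2.75, 1.92, 1.52 and 3.41 CPM at 9 weeks, and cKO levels were 0.897, 1.24, 0.375 and 1 CPM. The 12-week libraries held 2.42, 1.4, 3.21 and 1.6 CPM in controls and 1.71, 4.14, 1.32 and 2.13 CPM in cKO glands. Groups were separate at 9 weeks, overlapped through a single cKO library at 6 weeks and overlapped widely at 12 weeks. The log2 fold changes were -0.96 ± 0.53, -1.44 ± 0.53 and 0.11 ± 0.51 (SE), with edgeR adjusted p of 0.18, 0.0406 and 0.907. Without 6-week cKO replicate 4 the 6-week value was -2.29 (adjusted p = 0.00044). The 9-week call was lost without cKO replicate 1, 3 or 4 or control replicate 1 or 4 (adjusted p up to 0.119) and without a filter on low counts (adjusted p = 0.0526). The change of effect between 6 and 12 weeks was 1.07 ± 0.74 (adjusted p = 0.659), or 2.40 (adjusted p = 0.0818) without 6-week cKO replicate 4. Within cKO females Stac2 differed by 1.46 ± 0.53 between 12 and 6 weeks (edgeR adjusted p = 0.085; 0.0423 with DESeq2), or by 2.80 (adjusted p = 0.00118) without 6-week cKO replicate 4. That library had a macrophage marker sum of 1190 CPM, against 452, 535 and 494 CPM in the other 6-week cKO libraries.

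Stac2 had the largest difference of the 6 genes after castration. Sham-operated animals had 11.9, 10.4, 11.8 and 7.97 CPM and castrated animals 0.369, 0.625, 0.303 and 0.326 CPM. Every castrated library lay far below every sham library. The log2 fold change was -4.68 ± 0.27, or 25.7-fold lower, with an edgeR adjusted p of 1.22e-06, and its size exceeded that of 99.5% of the genes tested.

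Many genes of the STAC family and the voltage-gated calcium channels were called lower in cKO glands, and few were called higher. Of 23 listed genes tested in males 11, 12 and 9 were called lower at 4, 6 and 9 weeks and none was called higher (1 at 6 weeks without cKO replicate 2 or 3 or control replicate 2), with a median log2 fold change of -0.86, -0.90 and -0.31. Of 25 tested in females 17, 17 and 16 were called lower and 0, 1 and 0 higher (at 9 weeks 0 without cKO replicate 2 or 3 or control replicate 2, and 2 without cKO replicate 1 or 4), with medians of -1.04, -1.05 and -0.97. Of all genes tested 12.9%, 11.9% and 13.6% were called lower in males and 19.1%, 20% and 16% in females. Stac, the closest relative of Stac2, fell in all 6 comparisons by 1.95 to 2.57 on the log2 scale, and Stac3, which couples calcium channels in skeletal muscle, passed the test in none (-0.70 to 0.17). Cacna1d, an L-type channel, was lower by 2.63, 2.23 and 2.13 in females and by 2.20, 2.07 and 1.20 in males. Cacna1b, an N-type channel of neurons and chromaffin cells, was lower by 2.63 to 3.34 in the 6 comparisons. After castration 12 of 22 were called lower, including Cacna1d (-1.82) and Stac (-1.13), and 1 higher (Cacna1i, 2.00). Over all genes tested 23.8% were lower and 19.8% higher. Chromaffin cell markers moved with this list: all 9 were called lower in cKO glands in each of the 6 genotype comparisons and after castration, with summed levels of 235 to 895 CPM in female cKO against 3730 to 5390 CPM in female control glands. In males those sums were 661 to 1350 CPM in cKO and 4770 to 15200 CPM in control glands, and after surgery 307 to 709 CPM in castrated and 927 to 1850 CPM in sham-operated animals. Markers of some other cells were also called lower. Of 6 zona glomerulosa genes 6, 6 and 5 were lower in cKO females and 5, 5 and 5 in cKO males. Of 5 Schwann and sustentacular cell genes the counts were 4, 4 and 4 in females and 5, 5 and 3 in males. Of 7 capsule and fibroblast genes they were 6, 7 and 7 in females and 5, 4 and 2 in males. After castration 6, 5 and 7 genes of these lists were lower. Other lists did not all fall. Of 6 endothelium genes 5, 5 and 2 were lower and 1, 1 and 1 higher in cKO females. In cKO males 1, 0 and 0 of them were lower and 0, 4 and 1 higher. After castration 5 endothelium genes were lower, and 5 of 6 zona fasciculata genes were higher. The part of any of these cells in the changes of the calcium channel list was not tested.

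Slc16a14, the transporter, was high in young cKO glands and lower in older ones. In 4-week males controls had 1.44, 1.01, 2.21 and 1.5 CPM and cKO glands 3.24, 7.05, 5.75 and 11 CPM. By 6 weeks the levels were 1.44, 2.69, 0.789 and 0.986 CPM in controls and 3.14, 1.89, 3.74 and 1.01 CPM in cKO glands. At 9 weeks controls had 4.7, 2.34, 1.64 and 0.967 CPM and cKO glands 1.42, 1.36, 0.763 and 1.54 CPM. The groups were separate at 4 weeks, and at 9 weeks 3 of the 4 controls lay above all cKO libraries. Log2 fold changes were 2.12, 0.72 and -0.91, with a change of -3.03 ± 0.67 (SE) between 4 and 9 weeks. At 9 weeks the log2 ratio was -1.34 in library numbers up to 24 and -0.18 above 24.

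The female values of Slc16a14 were highest in 6-week cKO glands. Controls of 6 weeks had 2, 1.08, 0.689 and 2.31 CPM and cKO glands of that age 3.87, 7.65, 7.58 and 1.24 CPM. Control levels were 1.2, 0.302, 0.248 and 0.949 CPM at 9 weeks, and cKO levels were 2.48, 0.645, 1.58 and 2.09 CPM. The 12-week libraries held 0.551, 0.747, 0.833 and 0.285 CPM in controls and 0.402, 0.463, 1.7 and 1.69 CPM in cKO glands. The groups overlapped at every age. The log2 fold change was 1.74 ± 0.58 at 6 weeks (edgeR adjusted p = 0.0243), 1.31 ± 0.62 at 9 weeks (0.108) and 0.83 ± 0.63 at 12 weeks (0.369). The 6-week call was lost without cKO replicate 2 or 3 or control replicate 2 or 3 (adjusted p up to 0.0773). Between 6 and 12 weeks Slc16a14 fell by 2.24 ± 0.60 in cKO females (edgeR adjusted p = 0.0202), a call lost without 6-week cKO replicate 2 or 3 or 12-week cKO replicate 1 or 2 (adjusted p up to 0.0722) and with the compared groups alone (adjusted p = 0.0791). In controls the difference was -1.34 ± 0.62 (adjusted p = 0.59), and the change of effect was -0.91 ± 0.85 (adjusted p = 0.782). After surgery sham-operated animals had 0.43, 2.83, 1.58 and 1.39 CPM and castrated animals 0.148, 2, 3.19 and 0.847 CPM. These ranges overlapped almost fully, with a log2 fold change of -0.00 ± 0.71 (adjusted p = 0.997).

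Other members of the transporter family differed among themselves. Of 12 tested in each sex 2, 2 and 1 were called lower in cKO males and 4, 2 and 3 in cKO females. Of all genes tested 12.9%, 11.9% and 13.6% were lower in males and 19.1%, 20% and 16% in females. The counts thus set the family little apart from the rest of the table. The 2 lower at 6 weeks in males became 1 without cKO replicate 1, 2 or 3 or control replicate 1, 2 or 4. At most 2 were called higher in any of the 6 comparisons, also when any 1 library was left out. Slc16a1, the lactate transporter MCT1, fell in all 6 comparisons by 0.66 to 1.42 on the log2 scale. Slc16a4 fell in 5 of them and had -0.42 in 9-week males (adjusted p = 0.499). Slc16a6 rose by 1.34 in 9-week males and by 0.71 in 9-week females. After castration 6 of 12 were called lower, led by Slc16a6 (-1.98) and Slc16a12 (-1.53), and 2 higher, Slc16a7 (1.06) and the chaperone Emb (1.38). Over all genes tested 23.8% were lower and 19.8% higher.

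Map3k9, the JNK pathway kinase, was higher in cKO females at all 3 ages. By 6 weeks the levels were 4.49, 4.36, 3.4 and 4.78 CPM in controls and 7.12, 9.18, 10.4 and 4.21 CPM in cKO glands. At 9 weeks controls had 4.34, 3.46, 2.65 and 3.63 CPM and cKO glands 6.71, 3.66, 7.1 and 8.82 CPM. Controls of 12 weeks had 3.61, 3.36, 4.68 and 3.44 CPM and cKO glands of that age 6.43, 3.84, 7.79 and 9.23 CPM. At each age 3 cKO libraries lay above all controls and the lowest one lay among them. Differences on the log2 scale were 0.86 ± 0.28, 0.90 ± 0.28 and 0.86 ± 0.28 (SE), with edgeR adjusted p of 0.0189, 0.0155 and 0.0266. The call was lost at 6 weeks without cKO or control replicate 3 (adjusted p up to 0.0744), at 9 weeks without cKO replicate 4 or control replicate 3 (up to 0.0636), and at 12 weeks without cKO replicate 3 or 4 or control replicate 1, 2 or 4 (up to 0.107). The change of the effect between 6 and 12 weeks was -0.00 ± 0.39 (adjusted p = 0.998).

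In males mean Map3k9 levels were higher in cKO glands at 4 and 6 weeks and lower at 9 weeks. At 4 weeks controls had 7.45, 3.47, 9.14 and 6.3 CPM and cKO glands 7.93, 21.6, 9.27 and 25.7 CPM. Control levels were 5.86, 10.6, 4.3 and 5.12 CPM at 6 weeks, and cKO levels were 13.2, 9.38, 12.3 and 9.63 CPM. The 9-week libraries held 19.4, 11.9, 10.7 and 8.96 CPM in controls and 9.31, 9.45, 8.59 and 11.3 CPM in cKO glands. The groups overlapped at every age, and control levels were highest at 9 weeks. The log2 fold changes were 1.28, 0.78 and -0.40, with a change of -1.67 ± 0.49 (SE) between 4 and 9 weeks. At 9 weeks the log2 ratio was -0.74 in library numbers up to 24 and 0.02 above 24, so the direction was not shared by both ranges. After surgery sham-operated animals had 4.33, 10.4, 9.07 and 8.21 CPM and castrated animals 3.25, 6.12, 8.56 and 5.86 CPM. These overlapped, with a log2 fold change of -0.43 ± 0.32 (edgeR adjusted p = 0.298).

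In the 6 genotype comparisons at least 12 of the 19 JNK pathway genes tested did not pass the test, and after castration 12 passed it. Of all genes tested 19.2% to 24.1% were called for genotype in males, 25.1% to 34.6% in females and 43.6% after castration. The larger count after castration is thus shared by the whole table and is not read as a trait of this list. Of 19 tested 2, 3 and 5 were called lower in cKO males and 4, 6 and 5 in cKO females. The 5 lower at 9 weeks in males became 3 without cKO replicate 2 or 3 or control replicate 2, 3 or 4. In females the 6 lower at 9 weeks became 3 without cKO replicate 3, and the 5 lower at 12 weeks became 3 without cKO replicate 1. At most 2 were called higher in any of the 6 comparisons, and at most 3 when any 1 library was left out. Mapk8ip2, a JNK scaffold of neurons and endocrine cells, was lower by 2.44 to 3.42 on the log2 scale in the 6 comparisons, and Mapk10, the neuronal JNK3, by 2.19 to 2.77. The sums of chromaffin markers given above fell in the same comparisons. Zona glomerulosa, Schwann and sustentacular cell, and capsule and fibroblast markers were also called lower in them. The relatives Map3k10 and Map3k11 lay between -0.26 and 0.11, and Map3k10 was called lower in males of 6 weeks (-0.26) and 9 weeks (-0.19). After castration 7 were called higher, led by Map3k20 (0.92) and Mapk8ip1 (0.82), and 5 lower, led by Mapk10 (-1.70) and Mapk8ip2 (-1.51). The 7 higher became 4 without castrated replicate 2 or 3.

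Asphd2 was lower in cKO males of 6 and 9 weeks and, of the 3 female ages, was called lower at 12 weeks only. It was higher after castration. In 4-week males controls had 2.35, 2.27, 2.58 and 1.56 CPM and cKO glands 1.9, 3.98, 3.17 and 2.55 CPM. By 6 weeks the levels were 2.66, 3.94, 3.51 and 3.29 CPM in controls and 0.672, 1.44, 1.57 and 0.777 CPM in cKO glands. At 9 weeks controls had 2.49, 5.07, 4.31 and 2.5 CPM and cKO glands 0.865, 0.905, 0.191 and 0.77 CPM. The groups overlapped at 4 weeks and were separate afterwards. Log2 fold changes were 0.40, -1.56 and -2.40, with a change of -2.80 ± 0.50 (SE) between 4 and 9 weeks. The 9-week log2 ratio was -2.09 in library numbers up to 24 and -2.83 above 24.

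In females Asphd2 passed the test at 12 weeks. Controls of 6 weeks had 1.8, 1.54, 1.9 and 2.24 CPM and cKO glands of that age 3.16, 1.64, 0.872 and 2.21 CPM. Control levels were 2.02, 1.76, 1.19 and 1.68 CPM at 9 weeks, and cKO levels were 0.756, 1.22, 0.723 and 2.5 CPM. The 12-week libraries held 2.45, 1.84, 3.04 and 2.15 CPM in controls and 0.91, 0.79, 0.674 and 1.72 CPM in cKO glands. The groups were separate at 12 weeks, by a narrow gap between 1.72 and 1.84 CPM. Differences on the log2 scale were 0.07 ± 0.37, -0.36 ± 0.38 and -1.20 ± 0.38 (SE), with edgeR adjusted p of 0.903, 0.498 and 0.0226. The 12-week call was lost without cKO replicate 1, 2 or 3 or control replicate 3 (adjusted p up to 0.0734). The change of effect between 6 and 12 weeks was -1.28 ± 0.53, with an unadjusted p of 0.0241 and an edgeR adjusted p of 0.394. Within cKO females Asphd2 differed by -0.94 ± 0.38 between 12 and 6 weeks (adjusted p = 0.123), or by -1.31 (adjusted p = 0.0452) without 12-week cKO replicate 4. After surgery sham-operated animals had 0.976, 0.736, 0.842 and 0.53 CPM and castrated animals 3.54, 2.28, 4.87 and 3.09 CPM. Every castrated library was above every sham library, with a log2 fold change of 2.17 ± 0.30, or 4.5-fold, and an edgeR adjusted p of 0.000267. Of its relatives, Asphd1 was lower in cKO glands by 2.30 to 3.67 on the log2 scale in the 6 comparisons and fell after castration by 1.95. Asph, which gives the family its name, was lower at 6 weeks in females (-0.31) and lay between -0.17 and -0.02 in the other comparisons, in which it did not pass the test.

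Pcdhga10, the protocadherin, passed the test neither in females nor after castration. In 4-week males controls had 5.6, 4.16, 5.76 and 4.18 CPM and cKO glands 5.17, 5, 7.75 and 7.81 CPM. By 6 weeks the levels were 3.04, 3.5, 1.94 and 3.09 CPM in controls and 2.09, 3.89, 3.61 and 2.49 CPM in cKO glands. At 9 weeks controls had 5.95, 4.49, 4.22 and 4.17 CPM and cKO glands 2.19, 1.47, 1.77 and 3.14 CPM. The groups were separate at 9 weeks only. The log2 fold changes were 0.37, 0.07 and -1.13, with a change of -1.51 ± 0.35 (SE) between 4 and 9 weeks. At 9 weeks the log2 ratio was -1.51 in library numbers up to 24 and -0.78 above 24. In females the 24 libraries ran from 2.49 to 7.92 CPM and the groups overlapped at every age, with log2 fold changes of -0.32 ± 0.27, -0.30 ± 0.27 and -0.02 ± 0.27 (edgeR adjusted p of 0.387, 0.417 and 0.967). Sham-operated animals had 1.72, 4.13, 4.75 and 4.75 CPM and castrated animals 3.65, 5.91, 6.3 and 3.26 CPM, a log2 fold change of 0.31 ± 0.33 (adjusted p = 0.476).

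Pcdhga10 (chr18:37746993-37841873, plus strand, GRCm38) overlaps 25 annotated genes on its strand, 21 of them gamma protocadherins, whose mRNAs share their last exons. The sources used here do not give how the counting divided reads of shared exons, so its counts and those of its neighbours are uncertain. Of 21 other gamma protocadherins tested in males 0, 1 and 11 were called lower in cKO glands and none was called higher, with medians of -0.02, -0.20 and -0.74. Of all genes tested in males 12.9%, 11.9% and 13.6% were called lower. The 11 became 3 without 9-week cKO replicate 3, and the 1 at 6 weeks became 0 without cKO replicate 2 or control replicate 1 or 2 and 2 without control replicate 3. In females 1, 5 and 3 were called lower, beside 19.1%, 20% and 16% of all genes, and at most 1 was called higher at any age. The counts lower became 3 without 6-week cKO or control replicate 2, 2 without 9-week cKO replicate 2, 8 without 9-week cKO replicate 4, and 1 without 12-week cKO replicate 2, 3 or 4 or control replicate 3. The neighbours Pcdhga9 and Pcdhga11 had -0.96 and -1.05 in 9-week males and did not pass the test in the other 5 genotype comparisons. After castration Pcdhgc3 (1.49) and Pcdhgc5 (1.81) were called higher, and the count of 2 became 1 without castrated replicate 2, 3 or 4 or sham replicate 2 or 4.

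Of the 6 genes 3 were called at each female age, against 33.4% of all genes tested at 6 weeks (14.2% higher and 19.1% lower in cKO), 34.6% at 9 weeks (14.6% and 20%) and 25.1% at 12 weeks (9.11% and 16%). Those called were Hvcn1, Slc16a14 and Map3k9 at 6 weeks, Hvcn1, Stac2 and Map3k9 at 9 weeks and Hvcn1, Asphd2 and Map3k9 at 12 weeks. With so many genes called, the count by itself sets the 6 genes little apart from the rest of the table. The change of the genotype effect with age, which had defined the genes in males, passed edgeR's test for 0 of 6 in females between 6 and 9 weeks and for 0 of 6 between 6 and 12 weeks. Of all genes 0.0644% and 0.322% were called there. At an unadjusted p under 0.05 the counts were 0 and 1 (Asphd2), and DESeq2 called 0 and 0. Between 6 and 12 weeks 0 of 6 were called in controls (0.0912% of all genes; 2 at an unadjusted p under 0.05, Hvcn1 and Slc16a14; 0 by DESeq2) and 2 of 6 in cKO glands (9.93%). Leaving out 1 library gave 1 to 4 called genes at 6 weeks, 1 to 3 at 9 weeks and 1 or 2 at 12 weeks, with the libraries named above. In cKO glands the 2 fell to 0 without 12-week cKO replicate 2 and rose to 3 without 6-week cKO replicate 4. The ages sampled differ between the sexes, and no test of sex was made.

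**Figure D3:**
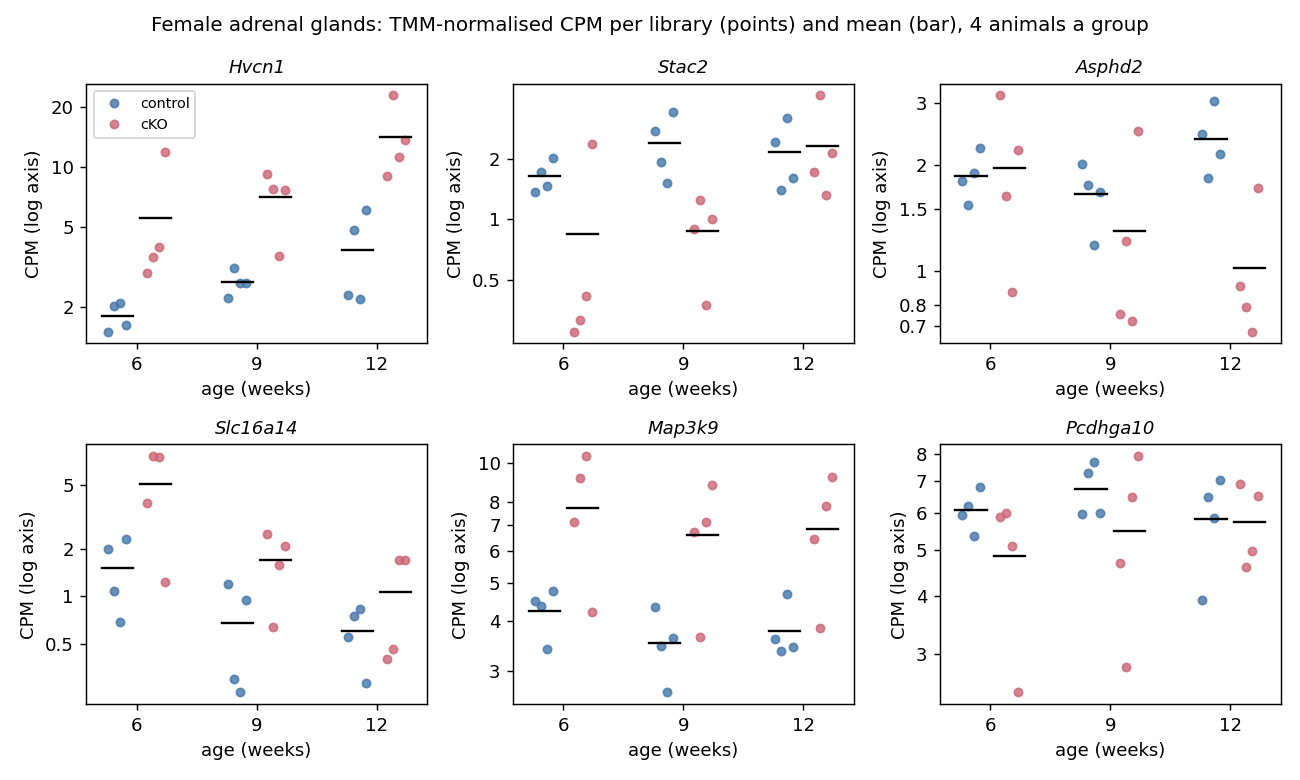
TMM-normalised CPM (log axis) of the 6 genes in female adrenal glands against age in weeks; points are libraries, blue for control and red for cKO, and bars are means of 4 animals. Hvcn1 in cKO glands lies above all controls at each age, and the 6-week cKO library with 11.9 CPM of Hvcn1 is also the one with 2.36 CPM of Stac2.

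**Figure D4:**
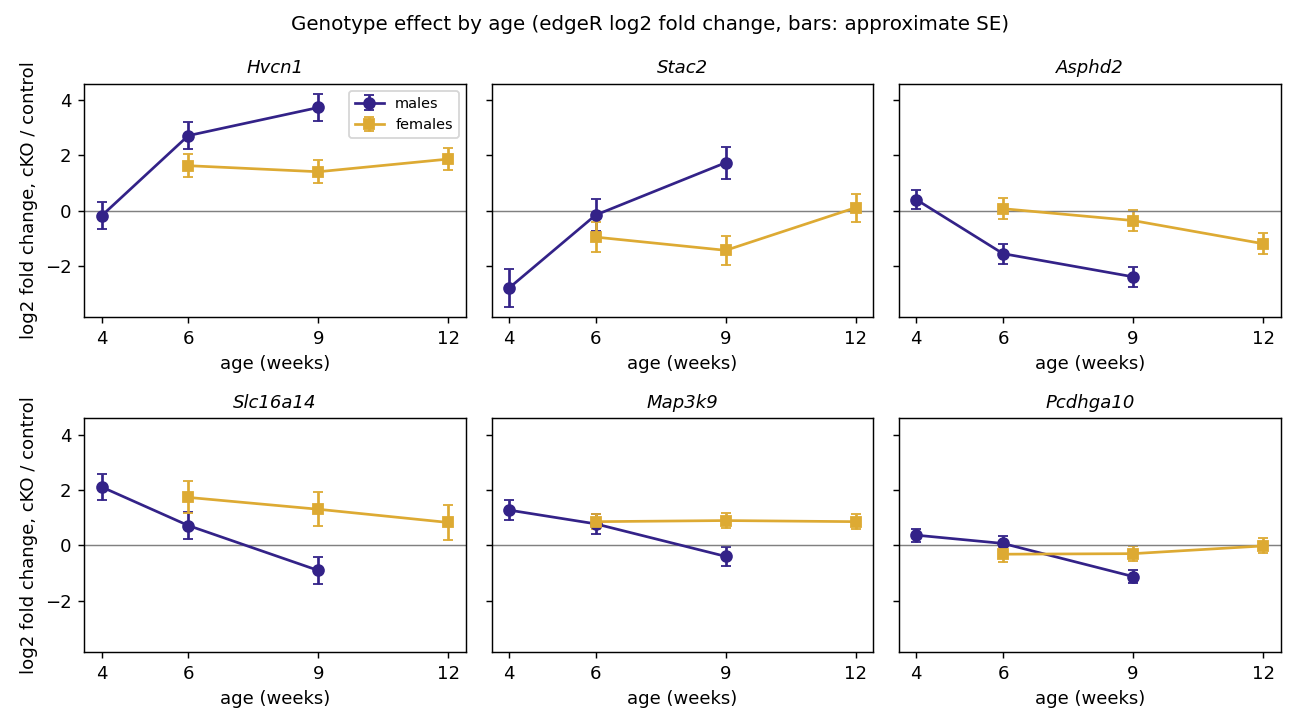
Log2 fold change of cKO over control against age in weeks, for males (circles) and females (squares), with bars for the approximate SE of edgeR's estimate. Male lines of Hvcn1 and Stac2 rise, from -0.19 to 3.74 and from -2.81 to 1.74, and the other 4 fall, while the female line of Map3k9 is flat between 0.86 and 0.90.

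After castration 3 of 6 genes were called, beside 43.6% of all genes tested (19.8% higher and 23.8% lower), so the count is near the background. By absolute log2 fold change Asphd2 exceeded 95.7% of all genes, and Hvcn1 and Stac2 the shares given above. The signs were opposite to those of the 9-week genotype difference in males for these 3 genes. Sham-operated cKO glands had means of 38.2, 10.5 and 0.771 CPM for Hvcn1, Stac2 and Asphd2. In the animals without surgery, measured in another table, the 9-week cKO means were 39.5, 9.94 and 0.683 CPM and no comparison across tables was made. The 3 calls held with the reporter allele as a covariate (-3.10, -4.69 and 2.10) and in library numbers up to 24 alone, with 2 sham and 4 castrated libraries (-2.99, -4.78 and 2.00). Markers of other cells moved with castration, and the summed level of 6 zona fasciculata genes was 46700 to 50300 CPM in castrated and 19900 to 30000 CPM in sham-operated animals. The part of cell composition in the 3 differences was not tested.

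**Figure D5:**
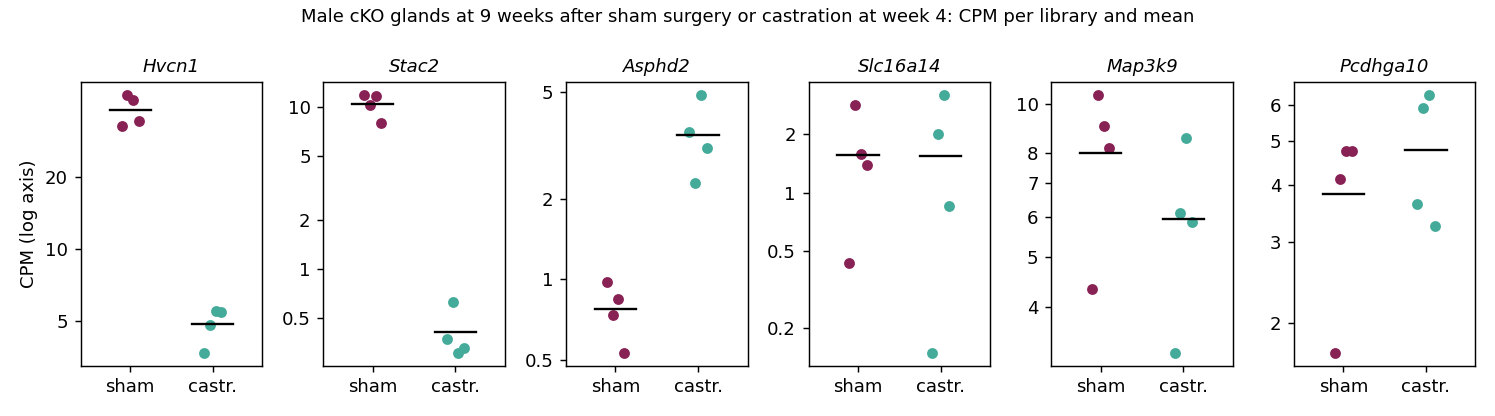
TMM-normalised CPM (log axis) of the 6 genes in male cKO adrenal glands at 9 weeks, after sham surgery or castration at week 4; points are libraries and bars are means of 4 animals. Hvcn1, Stac2 and Asphd2 separate the groups fully, with Stac2 at 7.97 to 11.9 CPM after sham surgery and 0.303 to 0.625 CPM after castration, and the other 3 genes overlap.

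Per kilobase of exon, mean levels in males ran from 0.17 CPM per kb (Asphd2) to 11.1 CPM per kb (Hvcn1), both in 9-week cKO glands. In females they ran from 0.18 (Slc16a14 in 12-week controls) to 3.99 CPM per kb (Hvcn1 in 12-week cKO glands). In the surgery series they ran from 0.129 (Stac2 in castrated animals) to 10.7 CPM per kb (Hvcn1 in sham-operated animals). In female controls of 6 weeks the order was Pcdhga10 (1.28 CPM per kb), Map3k9 (0.721), Stac2 (0.522), Hvcn1 (0.509), Asphd2 (0.467) and Slc16a14 (0.454), and the last 4 lay within the spread of their libraries. In 4-week male cKO glands Map3k9 (2.73) and Slc16a14 (2.02) led and Stac2 (0.185) was lowest. In 9-week male cKO glands Hvcn1 (11.1) and Stac2 (3.17) led and Asphd2 (0.17) was lowest. The same 2 genes led in sham-operated glands (10.7 and 3.34), and Hvcn1 (1.36) and Map3k9 (1.01) in castrated ones. The fewest reads were 4, for Stac2 in a 4-week male cKO library, for Asphd2 in a 9-week male cKO library and for Slc16a14 in a castrated one, so that the lowest levels carry the largest counting error.

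Across libraries Slc16a14 and Map3k9 varied together, with a Pearson r of log2 CPM of 0.77 in 24 male, 0.79 in 24 female and 0.92 in 8 surgery libraries. Hvcn1 and Asphd2 ran in opposite directions (-0.82, -0.46 and -0.93). These values describe points that share groups and libraries, and the male ones are partly set by the choice of the genes on the same libraries. Other pairs differed between the 3 tables. Hvcn1 and Stac2 had 0.50, 0.09 and 0.98, and Slc16a14 and Pcdhga10 had 0.65, -0.05 and 0.65. Among all genes tested in males those most like Hvcn1 were Fabp5, a fatty acid binding protein (r = 0.99 in males, 0.90 in females), Arhgap25 (0.98 and 0.97) and Cyba (0.98 and 0.94). For Stac2 they were Galnt6 (0.92 and 0.80), Cd9 (0.89 and 0.83) and Tubb2a (0.88 and 0.69). For Map3k9 the first was Gm49654 (0.93 and 0.81), a long noncoding RNA on the same strand at chr12:81717830-81720052 that starts 957 bases beyond the end of Map3k9. Likeness was weaker in females for every gene named here. Lower values are to be looked for there, because the genes were picked for their highest male values, and no sex difference is read from them. Arhgef10l and Rhof had 0.88 and 0.86 with Map3k9 in males but -0.46 and -0.33 in females. The 3 genes most like Asphd2 were Gnl3l, Tram1l1 and Zwint (0.83 to 0.86 in males, -0.02 to 0.69 in females), those most like Slc16a14 were Syt14, Lrp5 and Tex261 (0.87 to 0.88 and 0.07 to 0.45), and those most like Pcdhga10 were Ttc30b, Rmdn2 and Qsox2 (0.89 to 0.91 and -0.06 to 0.55).

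The other genes lie on GRCm38 at chr5:122206804-122242297 (Hvcn1, plus strand), chr11:98036623-98053462 (Stac2, minus), chr1:84905898-84935134 (Slc16a14, minus), chr12:81721010-81781175 (Map3k9, minus) and chr5:112384354-112394866 (Asphd2, minus). Hvcn1 overlaps Tctn1 on the other strand.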

How the data were processed

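Whole adrenal glands were profiled by poly(A) RNA sequencing with a directional library kit, per the labels' protocols. The authors deposited raw read counts per Ensembl gene in 3 tables (females, males, surgery). STAR 2.7.6a, cutadapt 1.16, RSEM 1.6.3, DESeq2 1.30.1, featureCounts and GRCm38 are named in the submitters' processing notes, without their roles. The sources used here do not give how reads on overlapping genes were counted. All 56 columns matched a sample, no 2 libraries were identical (0 pairs), and each table was fitted alone.

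The deposited counts entered edgeR 4.0.16 under R 4.3.3 (filterByExpr with a minimum count of 10, TMM scaling, 1 model over all groups of a table). Genotype, change of the genotype effect, age and castration contrasts were tested with edgeR's quasi-likelihood test, and p-values were adjusted by Benjamini-Hochberg over the 18645, 17086 or 16961 genes tested, with a threshold of 0.05. SEs are approximate, from the log2 fold change and its statistic. Likeness is Pearson's r of log2 CPM (prior count 2). The scripts were tested on simulated data. The 6 genes and the gene lists were chosen with earlier results of these data known. Named beside the 6 genes are the 3 most like each in males, up to 4 genes per list with the smallest p over the genotype contrasts, fixed relatives, and list genes called after castration. Equal replicate numbers in the labels did not pair the samples. Male library number is the number in the titles, and its meaning is not given. The gene annotation was GENCODE M21 and promoter windows came from RefSeq (GRCm38.p6). Alternatives were DESeq2 1.42.0, RLE scaling, other filters (none, or at least 1 CPM in 4 libraries), the compared groups alone, a replicate block, library number, reporter allele and each library left out. Single values of some list genes are not reported here.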

Additional observations from a re-analysis of the deposited data

Results flagged for a closer look

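In the 6-week female cKO group, replicate 4 stood far from the other libraries for 2 genes. Its Hvcn1 level was 11.9 CPM with the next library at 4 CPM, and its Stac2 level was 2.36 CPM with the next at 0.412 CPM. The gap to the nearest library exceeded Dixon's 95% critical value for 4 samples in both. In all, 84 groups of 4 values were checked and 2 passed, and chance passes about 1 in 20. The library also had the highest macrophage marker sum of its group, 1190 CPM against 452, 535 and 494 CPM. The part of these cells in the 2 levels was not tested.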

How the results depend on the processing

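The female genotype calls of Hvcn1 and the castration calls of Hvcn1, Stac2 and Asphd2 held in every alternative run. The call of Hvcn1 for 12 against 6 weeks in cKO females did not. Other female calls had adjusted p near the threshold, and many were lost when 1 library was left out. Leaving out each library gave 1 to 4 called members at 6 weeks, 1 to 3 at 9 weeks, 1 to 2 at 12 weeks, 0 to 3 between 12 and 6 weeks in cKO females (0 with the compared groups alone) and 3 to 3 after castration. At most 0.322% of genes were called for the female changes of effect and for age in female controls. For the male change between 4 and 6 weeks the share was 0.00585%. It was 4.92% for the male change between 4 and 9 weeks and 9.93% for age in cKO females. All these counts depended on the processing. With DESeq2, the replicate block and the compared groups alone, genes called were 285, 35 and 15 for the female change between 6 and 12 weeks (60 in the reported fit, 11 to 143 leaving out 1 library) and 102, 8 and 2 for 12 against 6 weeks in controls (17, 0 to 20). For the male change between 4 and 6 weeks they were 98, 0 and 8, and 2 without a filter (1, 0 to 5). For the female change between 6 and 9 weeks DESeq2 gave 93 and the compared groups alone 42 (12, 5 to 20). For the male change between 4 and 9 weeks DESeq2 gave 1650, the compared groups alone 343 and the library number covariate 13 (840, 290 to 2181). Between 12 and 6 weeks in cKO females the compared groups alone gave 544 (1852, 1036 to 1603). With the library number covariate 1701 genes were called at 4 weeks in males (3275, 2609 to 4745) and 1613 at 6 weeks (3435, 2806 to 3365). The 6-week count in that fit rests on range differences at the other ages. At 9 weeks 224 were called up to number 24 and 2215 above 24, with fewer libraries in each (4110, 2947 to 4403). Genes called at the female ages were 5391 to 6103, 5446 to 5993 and 3896 to 4466 leaving out 1 library, and 6189 to 8136 after castration.

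Map3k9 at 9 weeks in males turned from -0.40 to 0.02 above library number 24. The causes of these shifts were not tested. The replicate block changed no call of the 6 genes (3, 3 and 3 at the female ages, 0, 0 and 0 for the changes with age and controls, 2 in cKO females). Same-numbered samples correlated between -0.25 and 0.19, and 7 of 24 libraries in each sex correlated best with their own number, so the numbers were not treated as pairs. No paired analysis was possible for castration because the sham samples share 1 number. The library number alternative for castration was added after the data were seen. Low counts (down to 4 reads) limit Stac2, Asphd2 and Slc16a14 in single libraries, and the depth of the male table was the lowest.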
